A study of Mus musculus with 6 samples.

Results

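DNA methylation is written, copied and removed by a small set of proteins, and the transcripts of 9 of them were followed in mouse embryonic fibroblasts (MEFs) with and without MCM8. The genes were chosen by name, as Dnmt1, Dnmt3a, Dnmt3b, Uhrf1, Uhrf2, Tet1, Tet2, Tet3 and Tdg. All 9 were found among the 55565 genes of the deposited tables, and all 9 were among the 26898 genes that had reads in at least 1 library and were tested. The study asks what MCM8, a helicase of the minichromosome maintenance family, does in dividing germ cells, and used MEFs as a somatic model. Bulk RNA sequencing was available for 3 libraries of wildtype (WT) and 3 of Mcm8 knockout (KO) MEFs, both derived from the trunks of embryos at embryonic day 13.5. Both genotypes came from mice of a mixed C57BL/6J and ICR background. The KO mice were made with CRISPR-Cas9 and lack an exon of Mcm8. By the methods, the MEFs of both genotypes were immortalised with an SV40gp6 lentivirus and selected with puromycin. Gene positions are those of the deposited table, which the methods tie to an Ensembl annotation and which are not GRCm38 positions. The methods call the 3 libraries of a genotype biological repeats without saying whether these were separate embryos or cultures. The p-values below thus rest only on the spread between these libraries, part of which may be technical. In the main edgeR fit this spread was a trend over all genes. Its p-values and intervals do not follow the scatter of a single gene.

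In mammals a methyl group is placed on cytosine, mostly where C is followed by G. DNMT3A and DNMT3B set new marks, and DNMT1 copies them onto the daughter strand after replication, brought there by UHRF1, which reads hemimethylated DNA. The TET enzymes oxidise methylcytosine, and TDG cuts out the most oxidised forms so that base excision repair can put back an unmodified cytosine. Cultured fibroblasts are dividing somatic cells in which the maintenance arm of this system is known to be active, while TET1 and the de novo enzymes are better known from early embryos and germ cells. RNA levels say nothing of the methylation of the DNA itself, which was not measured in these libraries.

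The libraries held between 12722979 (WT1) and 21022755 (KO1) counts. Mcm8 itself was at 13.8, 16.6 and 12.8 CPM (a gene's counts scaled to the size of the library, with TMM factors) in the WT libraries and at 4.20, 4.45 and 4.12 CPM in the KO libraries, a log2 fold change of -1.75 (SE 0.16, adjusted p = 4.45e-26). Counts per gene do not show which exons the KO reads covered. Of 10 fibroblast markers, all were detected, while 8 of 10 pluripotency and germ cell markers were at 0 in every library. The genotypes also differed in sex-linked genes and in markers of other cell types. Xist ranged over 940 to 1359 CPM in WT against 474 to 494 CPM in KO, the Y-linked gene Ddx3y was at 6.77 to 8.70 CPM in WT and 38.7 to 48.7 CPM in KO, the summed mesothelial markers were at 11.8 to 15.0 CPM in WT and 53.3 to 60.8 CPM in KO (8.70 to 12.2 and 10.1 to 12.5 CPM without Msln, which overlap), the summed epithelial markers were at 3.99 to 5.41 CPM in WT and 12.9 to 13.6 CPM in KO, and the summed neural markers were at 185 to 202 CPM in WT and 266 to 286 CPM in KO. Of 6 tested neural markers, 2 (Tubb3 and Nes) were called higher and 1 (Mbp) lower, with a median log2 fold change of 0.0072. The part of these differences between the genotypes in the results below was not tested. In such bulk samples, fewer cells of a type and less RNA per cell cannot be told apart.

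The WT1 library stood apart. Among protein-coding genes with a mean of at least 10 CPM, the 1097 genes with a listed length (the length that the deposited table gives for each gene) of 10 kb or more had a median log2 CPM 0.14 below the mean of the 6 libraries in WT1, 0.090 above it in WT2 and 0.064 above it in WT3. The 835 genes under 2 kb did the opposite, with medians of 0.16 in WT1 and -0.15 in WT2. The medians of the KO libraries lay between -0.011 and 0.022 in all 4 length classes. Tet1, Tet2, Tet3 and Dnmt3a are among the long genes, with listed lengths from 15457 to 16870 bases, and WT1 was the lowest of the 6 libraries for 7 of the 9 genes. Results that rest on WT1 are also given without that library, or with a fit that takes the trend of each library on gene length into account. The part of this trend in the results was tested only in that way. Long genes went down in WT1 and up in WT2 and WT3, so the fit with the length trend changes their spread more than their fold change.

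**Figure D1:**
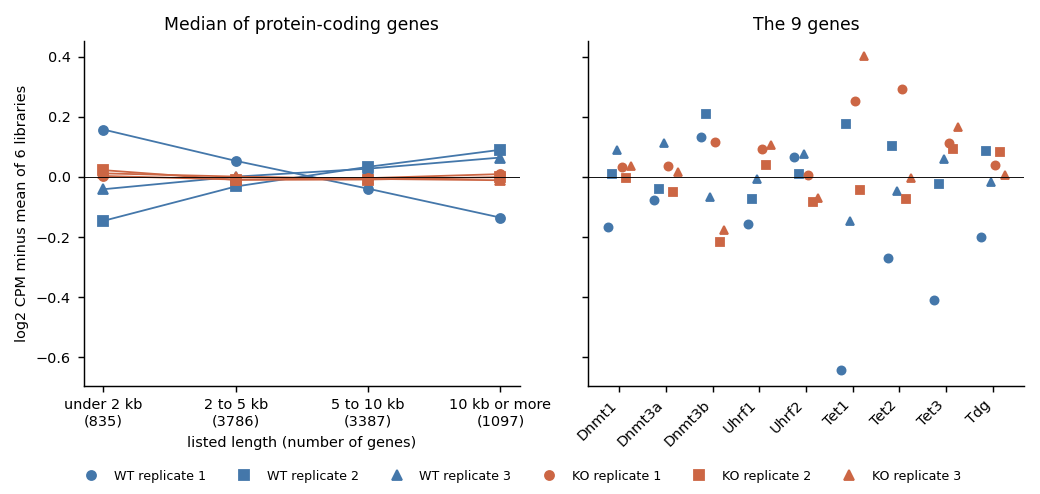
Log2 CPM minus the mean of the 6 libraries, as the median of protein-coding genes in 4 classes of listed length (left, number of genes in brackets) and for each of the 9 genes (right), with a symbol for each library. Long genes lie low in WT1 (-0.14 at 10 kb or more) and high in WT2 and WT3, and WT1 is the lowest point for 7 of the 9 genes.

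The set as a whole changed little. With edgeR's quasi-likelihood test and an adjusted p below 0.05 (Benjamini-Hochberg over all genes tested), 1 of the 9 genes, Tet3, was higher in KO and 0 were lower, where 4.97% of all tested genes were higher and 4.03% lower. Without adjustment 3 genes (Uhrf1, Tet1 and Tet3) had p below 0.05, all of them higher in KO, and DESeq2 and limma-voom called 0 of the 9. None passed the rule for differentially expressed genes (DEGs), which also asks for a log2 fold change beyond 1 in either direction and which 1.75% of tested genes passed upward and 0.665% downward. The KO libraries lay wholly above the WT libraries for 2 genes, Uhrf1 and Tet3, and wholly below for 1, Uhrf2, against 11.6% and 10.1% of all tested genes. The median log2 fold change of the 9 genes was 0.080, and that of all tested genes was 0.012. The median of the 9 rested on single libraries, at 0.0096 without WT1 (0.028 over all tested genes), 0.035 without KO1 (-0.0054) and 0.14 without WT2 (0.033). The 95% intervals of all 9 fold changes lay between 0.694 and 1.57.

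**Figure D2:**
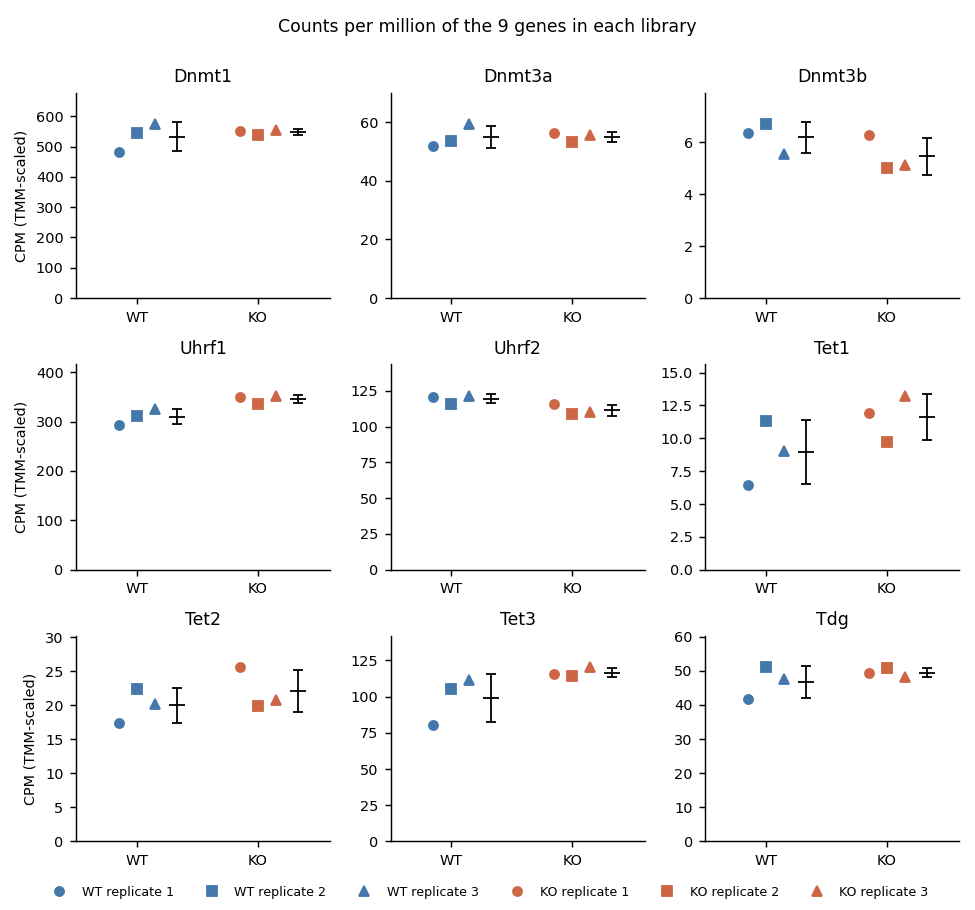
CPM of the 9 genes in each library, with WT on the left and KO on the right of each panel, all axes from 0, and the mean with its SD (n = 3) in black beside the points. The genotypes overlap in 6 panels, and WT replicate 1 lies low for Tet3 (80.5 CPM) and Tet1 (6.43 CPM).

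Maintenance of methylation was represented by Dnmt1 and its partner Uhrf1, together with the paralogue Uhrf2. Uhrf1 (ENSMUSG00000001228, chromosome 17, 56610321 to 56630486, plus strand) was at 294, 311 and 326 CPM in the WT libraries and at 349, 336 and 352 CPM in the KO libraries. Every KO value was above every WT value, but the shift was small, with a fold change of 1.11 (95% interval 1.02 to 1.22). It did not pass the test over all genes (log2 fold change 0.16, SE 0.068, adjusted p = 0.158, edgeR). It passed without WT1 (0.12, adjusted p = 0.0491) and with the length trend in the fit (0.16, adjusted p = 0.0377), and in none of the other 14 alternatives. The loci Gm15953 (4 to 21 counts per library) and Gm5648 (11 to 18), which the table assigns to the protein entry of Uhrf1, took few reads. Uhrf2 (ENSMUSG00000024817, chromosome 19, 30007913 to 30071122, plus strand), whose protein shares the domain layout of UHRF1 but is not known to replace it in maintenance, was at 121, 116 and 122 CPM in WT and 116, 109 and 110.0 CPM in KO. Here the KO values were all below the WT values, though KO1 was close to WT2 (115.9 against 116.1 CPM), and the fold change of 0.934 (0.844 to 1.03) did not pass (adjusted p = 0.544).

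Dnmt1 (ENSMUSG00000004099, chromosome 9, 20818505 to 20871184, minus strand) was at 481, 544 and 574 CPM in WT and 552, 538 and 554 CPM in KO. The KO libraries fell inside the WT range. The fold change was 1.03 (0.941 to 1.12, adjusted p = 0.770), and its log2 value of 0.041 turned to -0.028 without WT1. Because DNMT1 and UHRF1 act at replication and their genes are known to rise in S phase, they were read beside 22 S-phase genes (Mcm2 to Mcm7, Cdc6, Rrm2, Tyms and others). Of these, 0 were called by edgeR or DESeq2 and 1 by limma-voom, and 1 higher and 1 lower had an unadjusted p below 0.05. Without WT1 edgeR called 3 (1 higher and 2 lower), without WT3 it called 1, and with the length trend 2. Their summed level was 3245 to 3366 CPM in WT and 3262 to 3326 CPM in KO. Of 16 G2/M genes, Plk1, a mitotic kinase, was higher (log2 fold change 0.30, adjusted p = 0.000872) and Kif11, a spindle motor, was lower (-0.24, adjusted p = 0.0120), a call that was lost without KO1 (adjusted p = 0.148) and without KO3 (0.167). Without WT1, 7 of the 16 were called, 3 higher and 4 lower, where 1650 of 26516 tested genes were higher and 1624 lower. In the main fit 4.97% of all tested genes were higher and 4.03% lower. Of the 16, 1 was called without KO1 or without KO3, and 3 were called with the length trend.

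The promoters of Uhrf1 and Dnmt1 are shown because they were the only ones of the set to hold a word of the type bound by E2F factors, the regulators of S-phase genes. Windows from 250 bases before to 50 after each annotated start were taken from RefSeq (GRCm38.p6), 14 in all for the 9 genes, and searched on both strands for TTTGGCGC, TTTCGCGC, TTTCCCGC and CCAAT. Of 32851 such windows in the genome, 1.84% held any of the 3 E2F-type words and 37.4% held CCAAT. The stretches below give the TTTCGCGC word or its reverse complement in capitals, with its flanks.
Uhrf1, first base of the word at -185, chr17:56304112-56304151, plus strand: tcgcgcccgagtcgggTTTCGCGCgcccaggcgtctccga
Dnmt1, first base of the word at -219, chr9:20952819-20952858, minus strand: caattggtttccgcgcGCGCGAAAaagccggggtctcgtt
The same Dnmt1 window held TTTGGCGC at 33 bases after the start, and both windows also held CCAAT, at places that did not overlap these words. RefSeq lists 3 windows for Dnmt1 and 2 for Uhrf1, and the others held no E2F-type word. A match describes letters only, and the counts do not show which start site was used.

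The de novo enzymes lay far below Dnmt1 per length, at 3.29 FPKM (the authors' fragment counts divided by gene length and library size) for Dnmt3a and 1.14 FPKM for Dnmt3b against 72.9 FPKM for Dnmt1 (means of 6 libraries). Dnmt3a (ENSMUSG00000020661, chromosome 12, 3856007 to 3964443, plus strand) was at 52.0, 53.5 and 59.4 CPM in WT and 56.4, 53.1 and 55.6 CPM in KO. The means were 55.0 ± 3.88 CPM in WT and 55.0 ± 1.72 CPM in KO (SD, n = 3), and the interval of the fold change (0.999) ran from 0.892 to 1.12 (adjusted p = 0.996). Dnmt3b (ENSMUSG00000027478, chromosome 2, 153491370 to 153529650, plus strand) was at 6.35, 6.70 and 5.53 CPM in WT and 6.28, 4.99 and 5.12 CPM in KO. Its values overlapped, and at this low level the interval of the fold change (0.891) was wide, from 0.694 to 1.14 (adjusted p = 0.682). Dnmt3b lies 20.8 Mb from Mcm8 on the same chromosome. DNMT3L, the partner without catalytic activity that helps the de novo enzymes in germ cells, had 0, 1 and 2 counts in WT and 1, 2 and 5 in KO. Dnmt3c, the rodent enzyme of the male germline, had 2 counts in WT1 and 0 in the other libraries. The antisense transcript Dnmt3aos, which overlaps Dnmt3a, had counts that came to 0.237% of those of Dnmt3a, and Dnmt3bos was at 0 in every library.

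The erasers held the only called gene. Tet3 (ENSMUSG00000034832, chromosome 6, 83339355 to 83436066, minus strand), the TET enzyme with the highest RNA level in these cells, was at 80.5, 105 and 112 CPM in WT and at 116, 114 and 120.1 CPM in KO. The KO libraries were all above the WT libraries, WT1 was far below the others, and WT3 was close to KO2. The fold change was 1.17 (1.06 to 1.30), with a log2 value of 0.23 (SE 0.075, adjusted p = 0.0264, edgeR). Without WT1 it came to 0.10 (adjusted p = 0.297). The call held in 5 of 16 alternatives, among them the fit with the length trend (0.23, adjusted p = 0.00403). For Tet3 that fit's log2 offsets were -0.19, 0.10 and 0.073 in WT1, WT2 and WT3 and -0.0058 to 0.016 in KO. These nearly cancelled within WT, so that fit could hardly move the fold change and cannot stand in for leaving WT1 out. The call was lost in 11 alternatives, among them DESeq2 (adjusted p = 0.233), limma-voom (0.142) and each fit without a KO library (0.0914 to 0.177).

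Tet1 (ENSMUSG00000047146, chromosome 10, 62640349 to 62744775, minus strand), the TET enzyme best known from embryonic stem cells and primordial germ cells, was the lowest of the 9 genes per length. It was at 6.43, 11.3 and 9.07 CPM in WT and 11.9, 9.74 and 13.2 CPM in KO. The genotypes overlapped through WT2 and KO2. Its fold change of 1.30 (1.07 to 1.57) was the largest of the set and did not pass (log2 fold change 0.37, SE 0.14, adjusted p = 0.0883). It passed without WT2 (0.56, adjusted p = 0.00647) and without KO2 (0.48, adjusted p = 0.0415), the libraries that overlapped, and came to 0.20 without WT1 (adjusted p = 0.497). Tet2 (ENSMUSG00000040943, chromosome 3, 133169440 to 133250900, minus strand), a gene often mutated in blood cancers, was at 17.3, 22.4 and 20.2 CPM in WT and 25.5, 19.8 and 20.8 CPM in KO. These values overlapped, and the fold change was 1.11 (0.955 to 1.28, adjusted p = 0.538). All 3 Tet genes had their lowest value in WT1, and without it their log2 fold changes were 0.20, 0.064 and 0.10, with 0 of the 3 called by edgeR.

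Genes that varied over the 6 libraries like Tet3 were looked up among 9104 protein-coding genes with a mean of at least 10 CPM. The highest Pearson correlations of log2 CPM were those of Golgb1 (0.999), a Golgi protein with a listed length of 11862 bases, of Prrc2a (0.998, 7631 bases) and of Kdm3b (0.998), a histone demethylase with 14095 bases. In WT1, WT2 and WT3 Golgb1 was at 153, 190.1 and 202 CPM, and in KO1, KO2 and KO3 at 209, 205 and 214 CPM. With 538 genes above 0.9, the pattern was a common one. The 6 points come from the same libraries for every gene, and Tet3, Golgb1, Prrc2a and Kdm3b were all lowest in WT1. The loci that overlap Tet3, such as the antisense lncRNA B230319C09Rik (0.701% of the Tet3 counts), were small beside it.

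The promoter of Tet3, the called gene, is shown with its CG pairs in capitals, from 250 bases before the start to the start (RefSeq, GRCm38.p6, chr6:83441679-83441928, minus strand).
Tet3: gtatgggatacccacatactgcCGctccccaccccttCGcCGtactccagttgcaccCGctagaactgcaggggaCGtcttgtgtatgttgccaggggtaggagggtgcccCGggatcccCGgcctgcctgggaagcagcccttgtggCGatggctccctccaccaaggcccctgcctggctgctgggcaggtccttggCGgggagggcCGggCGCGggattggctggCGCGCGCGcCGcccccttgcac
These 250 bases held 17 CG pairs, and the full window of 300 bases held 22, where the median of all windows was 7. The counts in the windows of the other genes ran from 2 to 57, with the highest in Tet2 (57) and the 2 upstream windows of Dnmt3a (46 and 47), the lowest in a Dnmt1 window that lies apart from the one shown above, and 17 in Tet1. None of these windows was measured for methylation here.

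Tdg (ENSMUSG00000034674, chromosome 10, 82465662 to 82486633, plus strand), the glycosylase that removes oxidised methylcytosine from DNA, was at 41.8, 51.0 and 47.4 CPM in WT and 49.3, 50.8 and 48.2 CPM in KO. The KO libraries fell inside the WT range, with a fold change of 1.06 (0.940 to 1.19, adjusted p = 0.682). Its log2 value of 0.080 came to 0.0096 without WT1, its lowest library, and to 0.14 without WT2, its highest, and was called in neither. The processed pseudogene Tdg-ps2 on another part of chromosome 10 took 230 to 431 counts per library, 20.5 ± 2.55 CPM in WT and 20.3 ± 2.60 CPM in KO (SD, n = 3), so reads of Tdg may have been split between the loci. Summed before the fit, Tdg and Tdg-ps2 were at 67.3 ± 6.48 CPM in WT and 69.8 ± 2.70 CPM in KO. Glt8d2, which overlaps the 3′ end of Tdg on the opposite strand, had counts that came to 8.36% of those of Tdg, and counting is not stated to have used the strand.

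Levels of different genes were compared in FPKM as deposited. The order thus depends on the listed gene lengths, which were not varied. The maintenance genes stood above the rest, with means over the 6 libraries of 76.7 FPKM for Uhrf1 and 72.9 FPKM for Dnmt1. These 2 did not part beyond their spread, since Uhrf1 was above Dnmt1 in 4 of 6 libraries. After a step of 5.45-fold came Uhrf2 (13.4 FPKM), Tdg (8.91 FPKM), Tet3 (6.43 FPKM) and Dnmt3a (3.29 FPKM), whose ranges over the libraries did not overlap with those of their neighbours. Tet2 (1.24 FPKM) and Dnmt3b (1.14 FPKM) overlapped and swapped places between the WT and the KO means, and Tet1 was last at 0.663 FPKM (from 0.416 in WT1 to 0.852 in KO3). Tet3 was thus above Tet2 and Tet1 in every library, and Dnmt3a was above Dnmt3b.

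**Figure D3:**
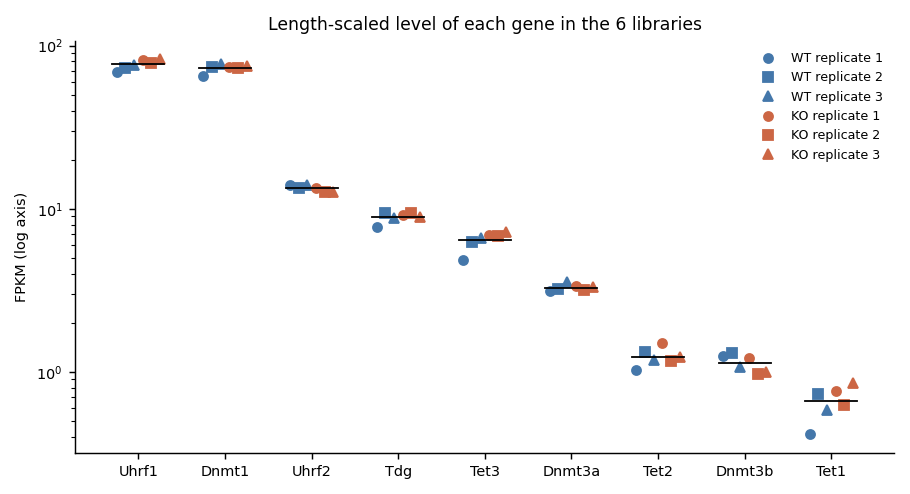
FPKM of each gene in the 6 libraries on a log axis, in the order of the mean over all libraries (black line), with a symbol for each library. Uhrf1 and Dnmt1 lie together at 65.1 to 82.3 FPKM, and Tet1 lies lowest at 0.416 to 0.852 FPKM.

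Ratios within a library do not depend on how the libraries were scaled to each other. Uhrf1 over Uhrf2 was 4.90, 5.40 and 5.40 in WT and 6.07, 6.23 and 6.46 in KO. The means were 5.23 ± 0.287 in WT and 6.25 ± 0.194 in KO (SD, n = 3 each), without overlap, although neither gene passed the test on its own. Uhrf1 over Dnmt1 was 1.06, 0.991 and 0.982 in WT and 1.09, 1.08 and 1.10 in KO, again without overlap. Summed Dnmt over summed Tet levels were 11.1, 9.36 and 9.74 in WT and 8.63, 8.92 and 8.56 in KO, without overlap. The highest value was in WT1, the library in which long genes such as the Tet genes were low. Dnmt1 made up most of the Dnmt sum, which came to 4.15 to 4.60 FPKM without it, and Tet3 most of the Tet sum. This ratio is therefore close to Dnmt1 over Tet3 and not a separate result for the families. The ratios of Dnmt3a to Dnmt3b, of Tet2 and of Tet3 to Tet1, and of Dnmt1 to the summed de novo enzymes overlapped. With 3 libraries against 3, an exact permutation test of such a ratio cannot give a two-sided p below 0.1, and the ratios are given as a description. Non-overlap of a single gene was common in these libraries (11.6% and 10.1% of all tested genes, as above), and its share among ratios was not computed.

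Around the 9 genes, 124 genes of 7 lists were read from the same fit, the cell cycle lists among them. Of the 115 that had reads and were tested, 7 (6.09%) were higher and 3 (2.61%) lower in KO by edgeR, against 4.97% and 4.03% of all tested genes, and 1 of the 7, Ahcy, was lost when its reads were summed with those of near copies, as given below. The count of higher genes was 14 without WT1 and 3 to 4 without KO1, KO2 or KO3, and that of lower genes was 9 without WT1 and 1 without KO1 or KO3. Over all tested genes, 1650 were higher and 1624 lower without WT1. DESeq2 called 4 genes of the lists higher. Of 18 partners of the methyltransferases (Hells, Cdca7, Zbtb24, Usp7, Setdb1 and others), only Trim28, the corepressor that zinc finger proteins use to keep imprints and retroelements methylated, was called, at 459 ± 18.0 CPM in WT and 526 ± 11.6 CPM in KO (log2 fold change 0.20, SE 0.066, adjusted p = 0.0339). The call of Trim28 held in 8 of 16 alternatives and was lost, among others, when any single KO library was left out (adjusted p of 0.1001 to 0.216). Without WT1, 2 partners were called. The list's median was 0.010. Of 10 genes from families that hold readers of methylated DNA, 1 was called. Zbtb38, a zinc finger protein that binds methylated DNA, was at 25.0 ± 1.66 CPM in WT and 31.4 ± 1.53 CPM in KO (0.33, SE 0.10, adjusted p = 0.0152). Its call held in 9 of 16 alternatives but not with DESeq2 (adjusted p = 0.0772) or limma-voom (0.0542). Mbd1, Mbd2, Mbd3 and Zbtb33 were among those that did not pass. At an unadjusted p below 0.05, 2 of the 10 were higher and 0 lower. The list had a median of 0.044.

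The 18 genes of base excision and deamination, which take over after TDG, had a median log2 fold change of 0.14, and 2 were higher and 0 lower (4 higher without WT1, 1 without WT2 or any single KO library). Xrcc1, the scaffold of single-strand break repair, was at 49.6 ± 4.86 CPM in WT and 58.8 ± 0.894 CPM in KO (0.24, SE 0.084, adjusted p = 0.0475, called in 4 of 16 alternatives). Apobec3, a cytidine deaminase that acts on retroviruses, was at 17.5, 20.3 and 18.1 CPM in WT and 26.7, 25.2 and 26.2 CPM in KO. Its groups stood well apart (0.49, SE 0.11, adjusted p = 0.000175), and the call held in 14 of 16 alternatives. Apex1, Polb, Lig3, Parp1, Smug1, Ung and the Neil genes did not pass. At an unadjusted p below 0.05 but not after adjustment stood Gadd45g (0.23, adjusted p = 0.0722), Neil1 (0.35, adjusted p = 0.263) and Neil3 (-0.20, adjusted p = 0.267).

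The only DEG of the pathway lists belonged to the supply of methyl groups and of oxoglutarate, the cosubstrate of the TET enzymes. Of 19 tested genes 2 were called higher and 2 lower, with a median of -0.046, and 2 were called in all without KO1 or KO2. Nnmt, the nicotinamide N-methyltransferase that spends S-adenosylmethionine, was at 15.0, 16.5 and 15.0 CPM in WT and 4.11, 5.71 and 4.18 CPM in KO. The groups stood far apart (log2 fold change -1.74, SE 0.15, adjusted p = 2.63e-27), and the call held in all 16 alternatives. Idh1, the cytosolic enzyme that makes oxoglutarate, was at 167 ± 13.4 CPM in WT and 141 ± 2.39 CPM in KO (-0.25, adjusted p = 0.00911). Its call held in 11 of 16 alternatives and was lost in both FPKM fits and when any single KO library was left out (adjusted p of 0.0568 to 0.119). D2hgdh, which turns 2-hydroxyglutarate back into oxoglutarate, was at 9.02 ± 1.26 and 12.6 ± 0.720 CPM (0.50, adjusted p = 0.00751), and its call held in 10 of 16, not with DESeq2 (adjusted p = 0.0904) or without WT3 (0.144). Idh2, Ogdh, Mat2a, Mat2b, Shmt1 and Shmt2 did not pass, and Mtr, the methionine synthase, just missed (0.24, adjusted p = 0.0535).

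Ahcy, which breaks down S-adenosylhomocysteine, the product that inhibits methyltransferases, had the largest rise among the called genes of these lists, but the rise did not hold once near copies were counted with it. Ahcy (chromosome 2) was at 86.5, 80.0 and 92.2 CPM in WT and 157, 161 and 164 CPM in KO (log2 fold change 0.89, SE 0.075, adjusted p = 1.28e-30). Ahcyl (chromosome 16), which the table assigns to the same protein entry as Ahcy, went the other way, from 155, 154 and 151 CPM in WT to 68.2, 74.1 and 76.2 CPM in KO (-1.07, SE 0.076, adjusted p = 6.72e-43). The processed pseudogene Gm9826 (chromosome 1) was at 1.14 ± 0.478 CPM in WT and 4.14 ± 0.907 CPM in KO. Summed before the fit, the 3 loci were at 243, 235 and 243 CPM in WT and 229, 239.7 and 243 CPM in KO. The summed values overlapped, and their log2 fold change was -0.018 (SE 0.069, adjusted p = 0.921). Ahcyl and Gm9826 were looked up after the values of Ahcy had been seen. Whether the reads moved between the loci in counting or the transcripts themselves shifted was not tested.

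**Figure D4:**
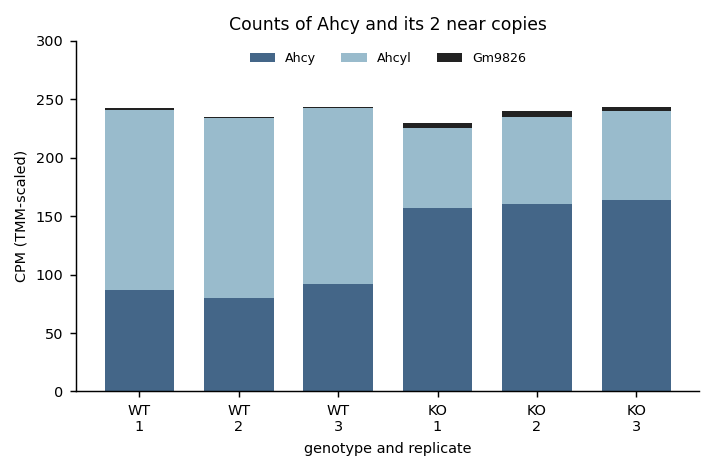
CPM of Ahcy, Ahcyl and the pseudogene Gm9826, stacked, in each library (genotype above replicate number on the x axis). The share of Ahcy grows from WT to KO while the stacks keep heights of 229 to 243 CPM.

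Germline genes whose promoters are known to be methylated in somatic cells were at or near 0 in both genotypes. Of 20 such genes, 8 (Mael, Tex101, Asz1, Hormad1, Fkbp6, Sohlh2, Rpl10l and Zfp42) were at 0 in every library, and of the 12 tested, 0 were called by edgeR or DESeq2, 1 by limma-voom and 1 by edgeR without WT1, and their median log2 fold change was -0.093. The summed level of the list was 3.43 to 4.63 CPM in WT and 3.43 to 4.63 CPM in KO. Most of it came from Brdt, the only gene with a mean of at least 1 CPM. Brdt was at 2.31 to 3.78 CPM in WT and 1.98 to 2.79 CPM in KO, so the sum says little of the other genes. Of the 12 tested genes, 6 had a log2 fold change above 0. Tdrd1 (a mean of 0.220 CPM in WT against 0.733 CPM in KO) and Piwil2 (0.0523 against 0.385 CPM) had 0 to 18 counts per library. Both had an unadjusted p below 0.05 and did not pass (adjusted p of 0.125 and 0.127). In both genes every KO value was above every WT value.

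**Figure D5:**
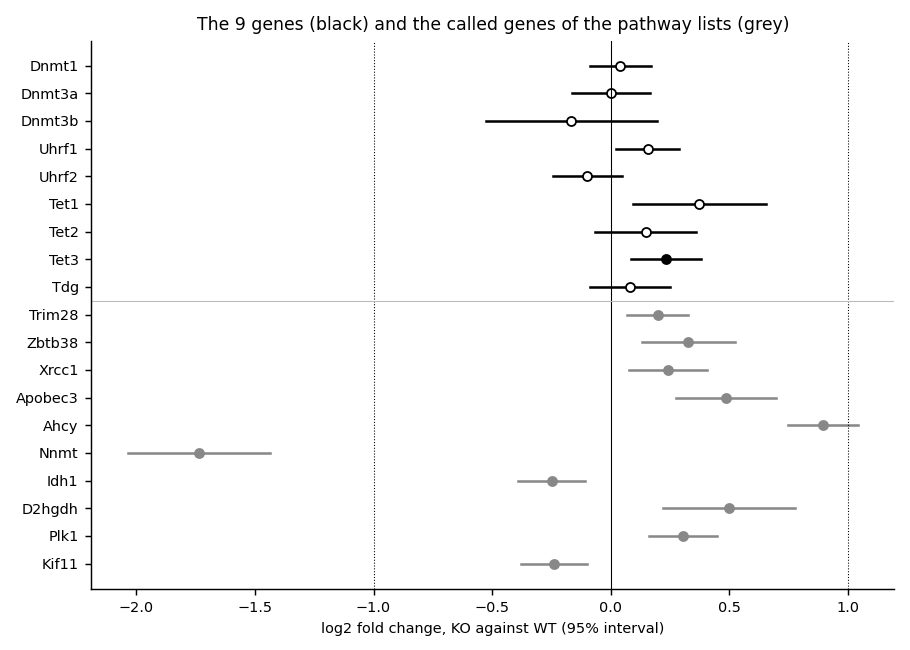
Log2 fold change of KO against WT with its 95% interval, from edgeR. The 9 genes are black and the 10 called genes of the 7 lists are grey. Points are filled where the adjusted p was below 0.05. Dotted lines mark the DEG rule's log2 fold change of 1 in either direction. Of the 9 genes only Tet3 is filled, at 0.23, and Nnmt lies farthest out, at -1.74. Ahcy is drawn without its near copies.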

How the data were processed

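Total RNA from 6 libraries of MEFs (3 WT, 3 KO) was sequenced by the authors as read pairs. Per the labels and the study's methods, reads were filtered with fastp, aligned with HISAT2 2.0.5 and counted per gene with featureCounts 1.5.0-p3. The deposited counts are raw, and the deposited FPKM values are those counts divided by the listed gene length and by the size of the library. The methods name Ensembl 106 as the genome and the processing notes list GRCm38 and mm10. Of 21779 protein-coding genes shared with a GRCm38 annotation (GENCODE M21), 513 had the same start, so the table's coordinates were not mixed with the RefSeq promoter windows of GRCm38.p6.

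Genes were kept where any library had an FPKM over 0, and the counts of these 26898 genes were fitted with edgeR 4.0.16 in R 4.3.3 (TMM, quasi-likelihood test, no covariates, Benjamini-Hochberg over all genes tested). The fit took each gene's spread from the trend over all genes. CPM values, SDs (n = 3) and ranges describe single genes, and FPKM values compare genes. Total counts per library set the counting precision, which is poorest for Tet1 and Dnmt3b. The fits were tested on simulated counts with known changes. Alternatives were RLE scaling, other gene filters, DESeq2 1.42.0, limma-voom and limma 3.58.1 on log2(FPKM + 1) and log2(FPKM + 0.1), the replicate number as a block, and each library left out in turn. A fit with each library's trend on gene length, and sums of Tdg and of Ahcy with their copies, were added after the values had been seen.

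The 9 genes and the lists (partners, readers, base excision, methyl donor and oxoglutarate supply, germline, S phase, G2/M and 8 lists of cell type markers) were chosen with earlier results of these data known. Named are all 9 genes, Mcm8, Xist, Ddx3y, the called genes of the 7 lists (at most 4 in each direction), the 3 genes most like a called member, and copies or antisense transcripts of the 9 genes. Ahcyl, Gm9826, Gadd45g, Neil1, Neil3, Mtr, Tdrd1, Piwil2 and Brdt were named after their values were seen. Some genes of the lists enter the lists' counts and medians but are not reported here by name. No amino acid sequences are shown. Reads, splicing and other assays of the study were not analysed here.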

Additional observations from a re-analysis of the deposited data

How the results depend on the processing

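The members' small differences limit what can be said. Up to 16 alternatives were computed for each result (17 for Tdg and Ahcy), and the length trend and the summed copies were chosen after seeing the data. Tet3 kept its direction in all 16, but its log2 fold change was not called with DESeq2 (0.23), limma-voom (0.23), filterByExpr (0.24), an FPKM above 0 in every library (0.23), no filter (0.23, adjusted p = 0.0545), or limma on log2(FPKM + 1) (0.21) and log2(FPKM + 0.1) (0.24), and ranged from 0.10 to 0.33 with single libraries left out. The adjusted p over all of these ran from 0.00237 to 0.416. Uhrf1 was called with the length trend (0.16) and ranged from 0.12 to 0.19 with libraries left out, and Tet1 ranged from 0.20 to 0.56. Dnmt1 turned from 0.041 to -0.028 without WT1 (0.098 at the highest), and Dnmt3a from -0.00084 to 0.0014 (FPKM above 0 in every library, and log2(FPKM + 1)), 0.0036 (filterByExpr), 0.0021 (log2(FPKM + 0.1)) and 0.0024 (replicate block), with -0.039 to 0.061 when libraries were left out. Neither was called in any of these. Ahcy turned from 0.89 to -0.018 when summed with its copies. The cause was not tested.

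Members called were 0 with DESeq2, limma-voom, filterByExpr, no filter, an FPKM above 0 in every library and both FPKM fits, 2 with the length trend, and 0 to 2 with libraries left out. Over all genes, DESeq2 called 852 higher and 672 lower. The limma fit on log2(FPKM + 0.1) called 527 higher and 389 lower (251 and 88 by the DEG rule), and on log2(FPKM + 1) 532 and 380 (99 and 39). With libraries left out, 956 to 1650 were higher and 650 to 1624 lower. Of the pathway lists, 4 genes were higher with DESeq2, 12 with the length trend, and 2 and 2 in the FPKM fits, and 3 to 14 were higher and 1 to 9 lower with libraries left out. Deviations from the group means (9378 genes) of same-numbered WT and KO libraries had correlations of -0.069, -0.024 and 0.12, so the numbers were not taken to pair them. With the replicate block, 1330 genes were higher and 1035 lower, Tet3 was called as before (0.25, adjusted p = 0.0190), Xrcc1 missed at 0.0501, and the other calls of the 9 genes and of the 10 called genes of the pathway lists did not change. The level order kept all 9 places in 7 alternatives. Each of these divided by the same listed gene length, so they do not test how far the order depends on it. With RLE scaling, the overall median log2 fold change shifted by -0.00088. Depth limits Tet1 and Dnmt3b most.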

Other observations

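The cell type marker lists were read for the identity of the cultures. Of 10 fibroblast markers, 3 were called higher in KO (Col1a1, Col3a1 and Fn1, log2 fold changes of 0.20, 0.29 and 0.29) and 3 lower (Thy1, Pdgfrb and Vim, -1.03, -0.74 and -0.19, with 5 lower without WT1 and 2 without KO1 or KO2), and their summed level was 25612 to 30435 CPM in WT and 29803 to 30674 CPM in KO. Fn1, a matrix gene, was at 4958, 7393 and 7483 CPM in WT, lowest in WT1, and at 8051, 8037 and 8237 CPM in KO. Of 7 mesothelial markers 5 were tested, Msln was at 2.74, 3.07 and 2.84 CPM in WT and 43.1, 48.3 and 43.2 CPM in KO (3.95, adjusted p = 2.31e-185, edgeR), Krt19 was higher too (0.85), and Bnc1 was lower (-0.60, not called without KO1, KO3 or WT3). Without Msln the summed level of the tested mesothelial markers overlapped, at 8.70 to 12.2 CPM in WT and 10.1 to 12.5 CPM in KO. Of 8 tested epithelial markers Krt8, Krt18 and Krt19 were higher, with Krt18 at 0.572 ± 0.264 CPM in WT and 4.56 ± 0.658 CPM in KO (SD, n = 3).

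Of 6 tested neural markers Tubb3 (0.67) and Nes (0.61) were higher and Mbp (-0.35) was lower, with 0 neural markers called lower by edgeR without KO1, KO3 or WT1. Sox2, the one pluripotency marker called, was at 0.252 ± 0.152 CPM in WT and 1.67 ± 0.732 CPM in KO. Among endothelial (5 tested), blood cell (4 tested) and muscle markers (7 tested), 0 were called by edgeR or DESeq2, and 1 endothelial marker was called by limma-voom and 1 by edgeR without WT2. At an unadjusted p below 0.05 there was 1 blood cell marker, lower in KO, and none of the others, and the summed levels of each of these lists stayed at or under 4.57 CPM in every library.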
